A study of Mus musculus with 12 samples.

Results

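A set of 10 genes, chosen by symbol for their known roles, stands for the synthesis and hepatic transport of bile acids in these livers. They are Cyp7a1 and Cyp8b1 (classical synthesis), Cyp27a1 and Cyp7b1 (alternative synthesis), Slc27a5 and Baat (conjugation), Abcb11 (export), Slc10a1 and Slco1b2 (uptake), and Nr0b2 (feedback). All 10 were among the 22456 genes with a deposited expression value, and all 10 were among the 11507 genes that averaged 0.5 RPKM or more and were tested. RPKM is a read count scaled to the length of the gene and to the mapped reads of the library.

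Bile acids are made from cholesterol in hepatocytes. Cyp7a1 opens the classical route and Cyp27a1 the alternative one, Slc27a5 and Baat join the products to taurine or glycine, and Abcb11 pumps the conjugates into bile. Returning bile acids are taken up from portal blood by Slc10a1 and Slco1b2, and they restrain their own synthesis through the receptor FXR (Nr1h4), its target Nr0b2 and an intestinal hormone that acts on the hepatocyte receptor Fgfr4.

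RNA-Seq was performed on liver from 12 male BALB/cByJ mice between 2 and 8 months of age, 3 in each of 4 groups. Fasted mice were caged singly and went 16 hours overnight without food, and refed mice then had chow for 5 hours, so that the effect of food and that of the hour of the day cannot be told apart. FLD mice were homozygous for the fatty liver dystrophy allele of Lpin1, which removes lipin 1 from all tissues (Lpin1-/-), and WT mice were wild-type littermates (Lpin1+/+), so that effects arising in liver and in other tissues cannot be told apart either. Each library came from total liver RNA, in which fewer cells of a type and less RNA per cell cannot be told apart.

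The libraries held an estimated 94.0 to 126 M mapped reads, and the lowest value of any of the 10 genes, that of Cyp7a1 in FLD fasted 2, corresponded to about 700 reads, so the spread between mice and not the number of reads limited precision. Lpin1 was at or below 0.0597 RPKM in all 6 FLD libraries and between 0.726 and 21.96 RPKM in the 6 WT libraries, and WT fasted 1 alone was above 2.92 RPKM (log2 fold change -2.19, limma adjusted p 0.0562 in fasted liver, and -1.87, adjusted p 0.0231 over both feeding states). All 10 hepatocyte markers were detected, with a summed level of 62249 to 100086 RPKM. Several libraries stood apart in the 10 genes. FLD fasted 1 was the lowest of its group in 6 of the 10 genes and WT refed 2 in 8 of them, while WT fasted 1 and FLD fasted 3 were the highest of theirs in 7. FLD fasted 1 also had the highest sum of bile duct markers (460 RPKM over 10 genes, against 28.4 and 61.0 RPKM in the rest of its group), of which Spp1 alone made up 430 RPKM. Kupffer cell markers summed to 311 to 834 RPKM in fasted FLD liver and to 161 to 335 RPKM in fasted WT liver, with 789 RPKM in 1 WT refed library. Stellate cell and fibroblast markers summed to 201 to 293 RPKM in fasted FLD liver and to 67.4 to 159 RPKM in fasted WT liver. Hepatocyte markers of the pericentral zone, where Cyp7a1 and the other early enzymes are usually enriched, summed to 3505 to 7155 RPKM in fasted FLD liver and to 8133 to 10122 RPKM in fasted WT liver, and to 5112 to 6132 RPKM in refed FLD and 3602 to 9543 RPKM in refed WT liver. Markers of the periportal zone summed to 9136 to 9473 RPKM in refed FLD and to 3294 to 4737 RPKM in refed WT liver, and to 7268 to 9449 RPKM and 4389 to 9366 RPKM when fasted. Such sums weigh the most abundant markers most. Of the 10 periportal markers, 5 were higher and 5 lower in FLD in each feeding state (median log2 fold change 0.17 refed and -0.02 fasted). Of the 10 pericentral markers, 8 were lower and 2 higher in fasted FLD liver (median -0.30), with 5 each way when refed. The part of these cell and zone differences in the results was not tested.

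**Figure D1:**
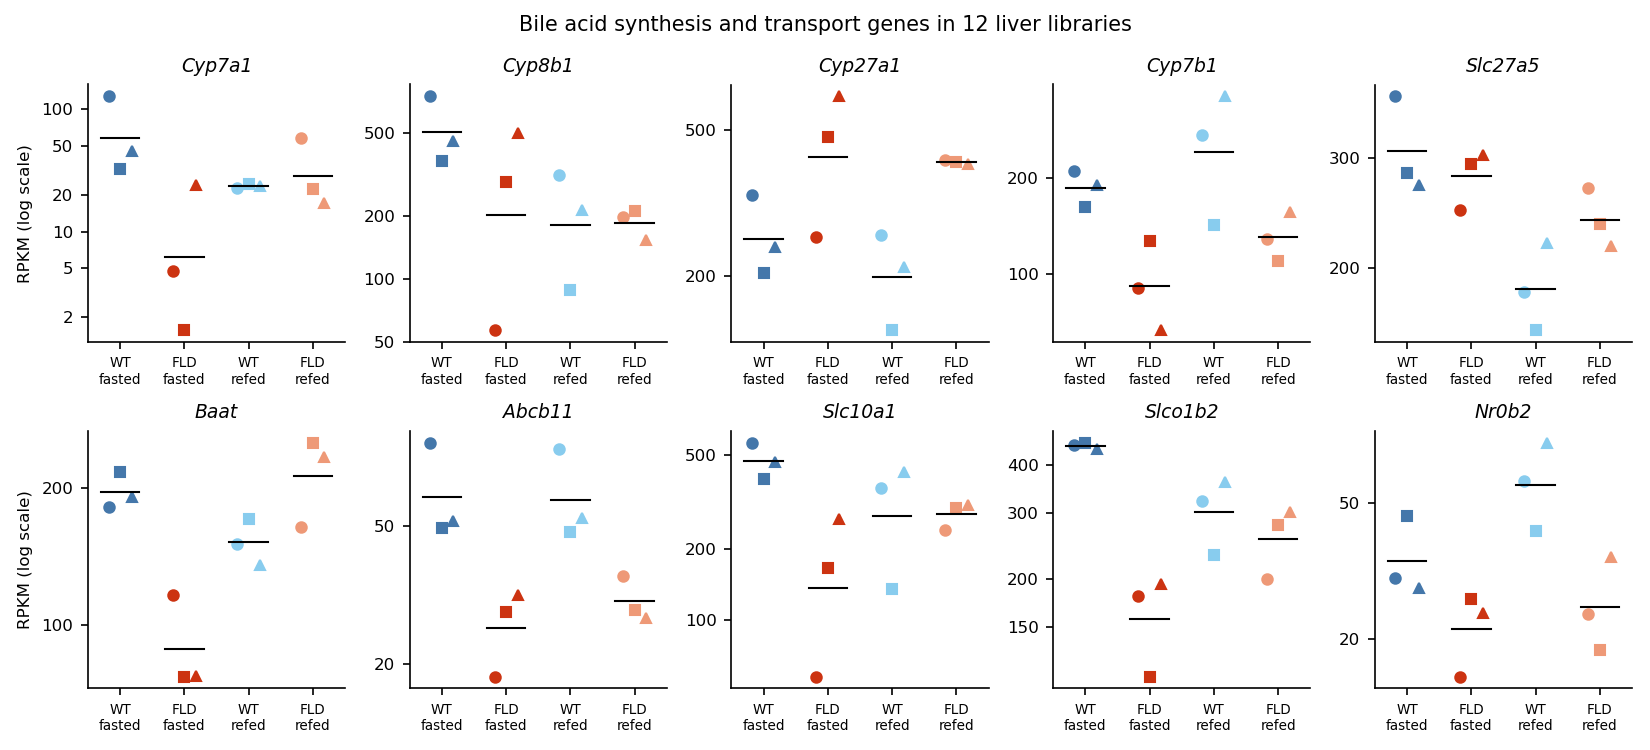
RPKM (vertical axis, log scale) of the 10 genes in each of the 12 libraries, by group. Circles, squares and triangles are replicates 1, 2 and 3, and black lines are the means on the log2(RPKM + 1) scale. In fasted liver the FLD points lay below all WT points for 7 genes, and Cyp27a1 was the 1 gene of the 10 whose FLD mean lay above the WT mean.

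In fasted WT liver the mean levels ran from 524 RPKM for Cyp8b1, 478 for Slc10a1 and 450 for Slco1b2, through 311 for Slc27a5, 258 for Cyp27a1, 197 for Baat and 188 for Cyp7b1, to 69.0 for Cyp7a1, 62.6 for Abcb11 and 34.8 for Nr0b2. Neighbours in this order overlapped between mice, with 3 exceptions, the steps from Slco1b2 (lowest library 440 RPKM) to Slc27a5 (highest 377), from Cyp7b1 (lowest 162) to Cyp7a1 (highest 128) and from Abcb11 (lowest 49.3) to Nr0b2 (highest 45.9). In fasted FLD liver the order was led by Cyp27a1 at 450 RPKM on average, ahead of Slc27a5 at 282 and Cyp8b1 at 281, and Cyp7a1 came last at 10.2 RPKM.

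The comparison of FLD with WT in fasted liver asked how loss of lipin 1 changes the transcripts of a liver that depends on fatty acid oxidation. Of the 10 genes, 5 were lower in FLD at an adjusted p below 0.05 (limma on log2(RPKM + 1), Benjamini-Hochberg over all genes tested) and none was higher, against 18.8% of all genes called, 13.2% lower and 5.63% higher. They were the rate-limiting enzyme Cyp7a1, the conjugating enzyme Baat, the export pump Abcb11 and both uptake carriers, Slc10a1 and Slco1b2. With median-ratio scaling the count stayed at 5, but Cyp27a1, higher in FLD, took the place of Slc10a1. The values of 7 of the 10 genes in the 3 FLD libraries lay below all 3 WT values, as they did for 22.2% of all genes. The median log2 fold change of the 10 was -1.18, and that of all genes tested was -0.14.

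Cyp7a1, cholesterol 7 alpha-hydroxylase, showed the greatest difference of the 10. It stood at 128, 32.7 and 45.8 RPKM in the WT fasted libraries and at 4.77, 1.56 and 24.2 RPKM in the FLD fasted ones. All FLD values were below all WT values, but each group was spread widely, by 3.92 times between its extremes in WT and by 15.5 times in FLD. The log2 fold change was -3.03 (SE 0.74), which is 8.20-fold lower, with an adjusted p of 0.0163 (limma). The call was lost when WT fasted 1, FLD fasted 1 or FLD fasted 2 was left out (log2 fold change -2.88 to -2.29, adjusted p 0.0531 to 0.0576), and in a fit of the 6 fasted libraries alone (adjusted p 0.0534, limma). Without FLD fasted 3 the log2 fold change was -3.94. In refed liver Cyp7a1 was at 22.7, 24.3 and 23.4 RPKM in WT and at 57.9, 22.4 and 17.2 RPKM in FLD. The WT values there lay within the FLD range, with a log2 difference of 0.26 (95% interval -1.37 to 1.89).

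Cyp8b1, the sterol 12 alpha-hydroxylase that sets the share of cholic acid, varied too much to be called. Its values were 746, 367 and 458 RPKM in fasted WT and 56.7, 289 and 497 RPKM in fasted FLD, a range that held 2 of the 3 WT values. The log2 fold change was -1.31 (95% interval -2.80 to 0.19, limma adjusted p 0.207), and it ran from -0.40 without FLD fasted 1 to -1.96 without FLD fasted 3. Refed values were 314, 87.9 and 213 RPKM in WT and 196, 211 and 152 RPKM in FLD. In the deviations of each library from its group mean, Cyp8b1 moved with Cyp27a1 (r = 0.98 over 12 libraries) and with Slc10a1 (r = 0.93), so that mice low for their group in 1 of these genes tended to be low in the others. These libraries share depth and marker content.

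Cyp27a1, the mitochondrial sterol 27-hydroxylase of the alternative route, ran the other way. It was at 331, 203 and 239 RPKM in fasted WT and 254, 479 and 617 RPKM in fasted FLD, with FLD fasted 1 inside the WT range. In refed liver it was at 258, 142 and 211 RPKM in WT and at 413, 408 and 403 RPKM in FLD, where every FLD value was above every WT value and the FLD libraries differed by little. Neither single comparison passed the threshold (log2 fold change 0.74, adjusted p 0.141 in fasted liver, and 1.04, adjusted p 0.0840 in refed liver, limma). Averaged over feeding states, Cyp27a1 was higher in FLD by 0.89 (SE 0.23, limma adjusted p 0.0188), against 21.8% of all genes called in that comparison and 7.01% called higher, and it stayed past the threshold whichever library was left out. Without FLD fasted 1 both single comparisons passed too (adjusted p 0.0318 and 0.0348, limma), as they did when the libraries were scaled by median ratios (log2 fold change 0.94, adjusted p 0.0466, and 1.10, adjusted p 0.0497, limma).

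Cyp7b1, the oxysterol 7 alpha-hydroxylase that follows Cyp27a1 on that route, was lower in FLD. It was at 211, 162 and 190 RPKM in fasted WT against 90.8, 127 and 66.8 RPKM in fasted FLD, and at 273, 142 and 361 RPKM against 129, 110 and 157 RPKM in refed liver. The groups did not overlap in fasted liver, and in refed liver WT refed 2 fell inside the FLD range. The averaged log2 fold change was -0.95 (SE 0.23, limma adjusted p 0.0143), past the threshold without any single library. In fasted liver alone it was -1.02 with an adjusted p of 0.0522 (limma), which fell to between 0.0177 and 0.0436 without FLD fasted 2, WT refed 2 or WT refed 3. In refed liver it was -0.88 (limma adjusted p 0.138), and -1.26 (adjusted p 0.0332) without WT refed 2. The 2 enzymes of the alternative route thus differed between genotypes in opposite directions. The level of Cyp27a1 over that of Cyp7b1 (RPKM ratio) was 1.57, 1.25 and 1.26 in fasted WT and 2.80, 3.76 and 9.24 in fasted FLD. It was 0.946, 1.0 and 0.585 in refed WT and 3.21, 3.71 and 2.57 in refed FLD. Every FLD mouse was thus above every WT mouse. Both genes were already called in opposite directions in these libraries, so this gap follows in part from that choice. Among other ratios computed, Cyp8b1 over Cyp27a1 did not overlap between genotypes in either feeding state. Cyp8b1 over Cyp7a1 and Cyp7a1 over Cyp27a1 overlapped in refed liver only. Cyp7a1 over Cyp7b1 and Slc10a1 over Abcb11 overlapped in both states.

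Baat, which joins the activated bile acid to its amino acid, was at 182, 217 and 191 RPKM in fasted WT and at 116, 77.1 and 77.3 RPKM in fasted FLD. The groups were well apart, with a log2 fold change of -1.14 (SE 0.22, limma adjusted p 0.0055). In refed liver Baat was at 151, 171 and 136 RPKM in WT and 164, 251 and 233 RPKM in FLD, the FLD values now being the higher ones apart from 1 that lay within the WT range. Slc27a5, the bile acid CoA ligase of the step before, did not follow Baat. It was at 377, 285 and 272 RPKM in fasted WT against 248, 293 and 303 RPKM in fasted FLD (log2 fold change -0.13, 95% interval -0.57 to 0.30).

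Both carriers of the sinusoidal membrane were lower in fasted FLD liver. Slco1b2, an organic anion transporter that takes up unconjugated bile acids, was at 451, 458 and 440 RPKM in WT and at 181, 111 and 195 RPKM in FLD. The 3 WT mice were nearly alike and the FLD mice far below them, with a log2 fold change of -1.51 (SE 0.26, limma adjusted p 0.0029), past the threshold in every alternative fit. Slc10a1, the sodium-dependent taurocholate transporter NTCP, was at 567, 398 and 469 RPKM in WT and 57.2, 166 and 268 RPKM in FLD. Here the FLD mice differed 4.68 times among themselves and still lay below every WT mouse (log2 fold change -1.78, SE 0.52, limma adjusted p 0.0351). The Slc10a1 call was lost when WT fasted 1, WT fasted 3, FLD fasted 1, FLD fasted 2, FLD refed 2 or FLD refed 3 was left out (log2 fold change -1.92 to -1.16, limma adjusted p 0.0511 to 0.109). It also ended with no filter on low values, with median-ratio scaling and in a fit of the 6 fasted libraries alone (limma adjusted p 0.0704, 0.0508 and 0.0659). In refed liver both carriers overlapped between genotypes, at 323, 232 and 361 RPKM in WT and 200, 278 and 302 RPKM in FLD for Slco1b2, and at 365, 136 and 425 RPKM and 240, 300 and 308 RPKM for Slc10a1.

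Abcb11, the bile salt export pump, was lower in FLD in both feeding states. It was at 86.8, 49.3 and 51.6 RPKM in fasted WT against 18.4, 28.2 and 31.6 RPKM in fasted FLD, and at 83.2, 48.0 and 52.6 RPKM against 35.9, 28.6 and 27.2 RPKM in refed liver. In neither state did the genotypes overlap. In refed liver this lack of overlap was shared by Nr0b2, 2 of the 10 genes lower in FLD against 19.1% of all genes, and Cyp27a1 was the 1 gene of the 10 wholly higher, against 14.8%. The log2 fold change was -1.22 (SE 0.29, limma adjusted p 0.0140) in fasted liver and -0.95 (limma adjusted p 0.0746, or 0.0413 without WT fasted 1) in refed liver, and averaged over both it was -1.08 (SE 0.20, limma adjusted p 0.0035). The fasted call was lost without FLD fasted 1 (log2 fold change -0.99, adjusted p 0.0512), while the averaged call held without any single library.

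RefSeq promoter windows (250 bases before to 50 after the annotated start, GRCm38.p6) were at hand for 6 of the 10 genes, in 7 windows. They were searched on both strands for the inverted repeat with a 1-base spacer to which FXR binds with its partner RXR, written here as GGNCA, any base and TGNCC. The motif was present in the windows of Abcb11 and Slco1b2, and in 0.676% of the 32851 windows of all genes. These 2 stretches are shown because they held the motif, and capitals mark it. Whether FXR acts at them in these livers was not tested. The Abcb11 stretch is chr2:69342658-69342687 (minus strand), with the motif beginning 62 bases before the start, and the Slco1b2 stretch is chr6:141629422-141629451 (plus strand), with the motif 87 bases before the start.
Abcb11: tggactttaGGCCATTGACCtataagcaaa
Slco1b2: atttgtgtaGGACAGTGACCtgaagagata

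In the Cyp8b1 window a second element was found, CAAAGTCCA, a form of the site for the hepatocyte factor HNF4A, at 67 bases before the start (chr9:121916353-121916382, minus strand). It occurred in 0.475% of all windows.
Cyp8b1: agcctctgagCAAAGTCCAagggcaggaac

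The search found AAGGNCA, a relaxed form of the site of LRH-1 (Nr5a2), in the windows of Nr0b2 and Cyp8b1, where 1 match overlaps the HNF4A element, and in 20.3% of all windows. The stricter AAGGTCA was in 0 of the 7 windows and 4.72% of all, the receptor core site AGGTCA in 3 and 16.3% (the FXR repeats of Abcb11 and Slco1b2 overlap it), TCANTGA in 3 and 7.14%, and CAAAGTNCA, which takes in the HNF4A element, in 1 and 1.41%. Windows of Cyp7a1, Cyp7b1, Baat and Slc27a5 were not analysed here. A match shows only that these letters occur in the window.

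Nr0b2 (SHP), a corepressor without a DNA-binding domain that damps Cyp7a1 and Cyp8b1 transcription, was the 1 gene of the 10 called between genotypes in refed liver, where 6.67% of all genes were called and 4.07% were called lower. It was at 58.0, 41.5 and 75.4 RPKM in refed WT and at 23.7, 18.5 and 34.8 RPKM in refed FLD, with no overlap. The log2 fold change was -1.16 (SE 0.30, limma adjusted p 0.0453). This call was a narrow one, lost without any of WT fasted 3, FLD fasted 2, FLD fasted 3, WT refed 1, WT refed 3 or each of the 3 FLD refed libraries (log2 fold change -1.39 to -0.95, limma adjusted p 0.0540 to 0.156). It also ended with no filter on low values, with median-ratio scaling, with the replicate number as a block and in a fit of the 6 refed libraries alone (limma adjusted p 0.0609 to 0.0906). In fasted liver Nr0b2 was at 30.2, 45.9 and 28.3 RPKM in WT and at 15.5, 26.2 and 23.8 RPKM in FLD, again without overlap (log2 fold change -0.65, limma adjusted p 0.162). Averaged over feeding states it was -0.90 (SE 0.21, limma adjusted p 0.0121), and this held without any single library. In all, the averaged comparison called Cyp27a1 higher and Cyp7b1, Abcb11, Slco1b2 and Nr0b2 lower in FLD (14.8% of all genes called lower).

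**Figure D2:**
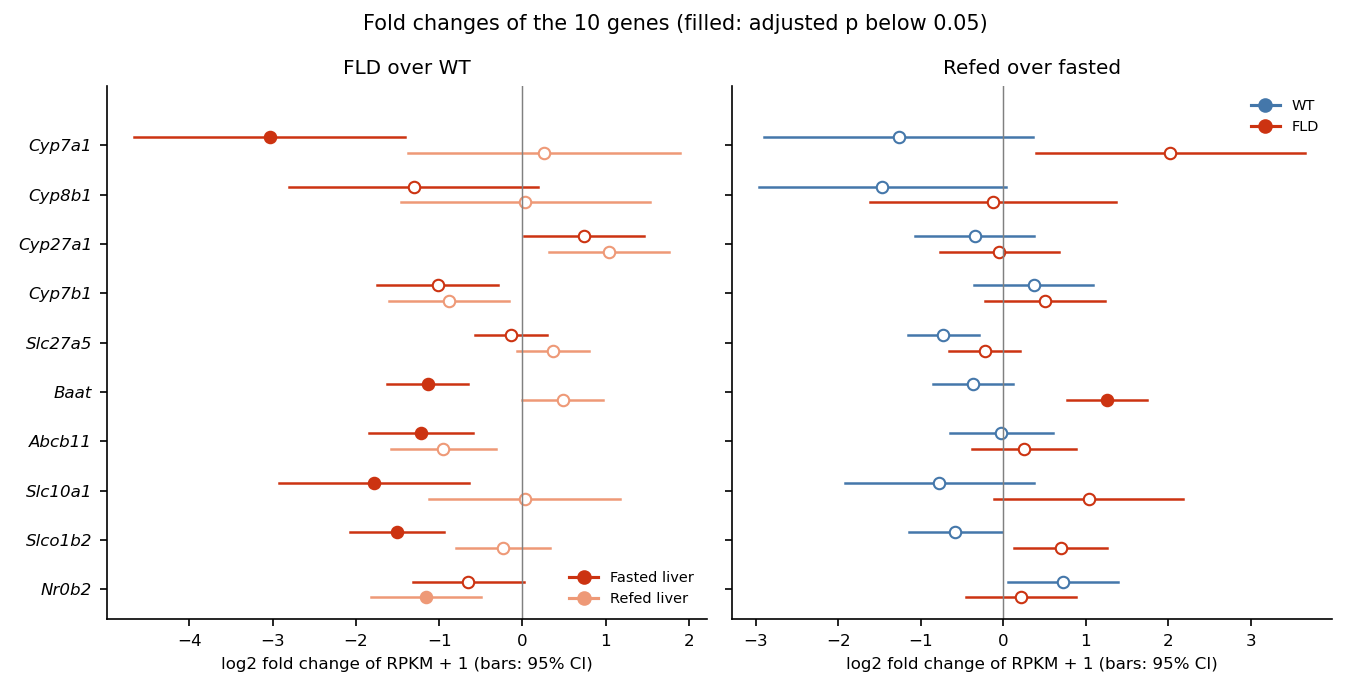
Log2 fold changes of RPKM + 1 (horizontal axis) for the 10 genes, as FLD over WT in each feeding state (left) and refed over fasted in each genotype (right). Points are limma estimates with 95% intervals, and filled points have an adjusted p below 0.05: 5 genes for fasted liver, Nr0b2 for refed liver, none for refeeding in WT and Baat for refeeding in FLD.

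Refeeding asked how the genes respond to food. In WT liver limma called none of the 10, against 1.72% of all genes, and 3 of the 10 had an unadjusted p below 0.05, as did 13.9% of all genes. Refed values of 5 genes (Cyp7a1, Cyp8b1, Slc27a5, Baat and Slco1b2) lay below all fasted values, as they did for 3.46% of all genes, and those of 0 genes lay above, against 14.6%. The log2 fold change was -1.27 for Cyp7a1 (95% interval -2.90 to 0.36) and -1.47 for Cyp8b1 (95% interval -2.96 to 0.03). Nr0b2 had a positive estimate (0.72, limma adjusted p 0.315). Slc27a5 went from 272 to 377 RPKM in fasted WT to 183, 159 and 219 RPKM in refed WT, a log2 fold change of -0.73 (SE 0.20, limma adjusted p 0.106).

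In FLD liver refeeding called 1 of the 10 genes. Baat was higher, by 1.26 on the log2 scale (SE 0.22, limma adjusted p 0.0035), against 20.7% of all genes called and 17.8% called higher. Its 3 refed FLD values (164 to 251 RPKM) were all above its 3 fasted FLD values (77.1 to 116 RPKM). Scaling the libraries by median ratios ended the call (log2 fold change 0.89, limma adjusted p 0.0624). Slco1b2 was also higher in every refed FLD library than in any fasted one (log2 fold change 0.70, limma adjusted p 0.0758), and such a gap was seen for 37.5% of all genes. Cyp7a1 (log2 fold change 2.02, limma adjusted p 0.0744) and Slc10a1 (1.03, limma adjusted p 0.177) had positive estimates with overlapping groups. Without FLD fasted 3 the Cyp7a1 estimate was 2.93 with an adjusted p of 0.0106 (limma), and without FLD fasted 2 it was 1.28 with an adjusted p of 0.234.

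The test of whether the response to refeeding differed between genotypes called Baat alone of the 10, against 1.28% of all genes called and 0.791% called higher. Its response was higher in FLD than in WT by 1.62 on the log2 scale (SE 0.31, limma adjusted p 0.0334), from -0.37 in WT to 1.26 in FLD. The call was lost without any of 9 of the 12 libraries, the exceptions being WT fasted 1, FLD fasted 1 and FLD refed 1 (limma adjusted p 0.0531 to 0.1095, log2 difference 1.5 to 1.71). Slco1b2 lay lower in every refed WT mouse than in any fasted WT mouse, and higher in every refed FLD mouse than in any fasted FLD mouse. Its difference in response of 1.28 (SE 0.36) did not pass the threshold (limma adjusted p 0.108). The difference in response did not pass for Cyp7a1 (3.29, SE 1.05, limma adjusted p 0.141) or Slc10a1 (1.81, SE 0.74, limma adjusted p 0.228) either, whose fasted and refed FLD values overlapped. For Cyp7a1 it ran from 2.55 without FLD fasted 2 to 4.20 without FLD fasted 3, where it was called (limma adjusted p 0.0387). Averaged over genotypes, refeeding lowered Slc27a5 by 0.48 (log2 fold change -0.48, SE 0.14, limma adjusted p 0.0349), 1 of 10 genes against 19% of all genes called and 1.84% called lower. The Slc27a5 call was lost without any of WT fasted 2, FLD fasted 2, FLD fasted 3, WT refed 1, WT refed 2, FLD refed 2 or FLD refed 3 (limma adjusted p 0.0523 to 0.0877).

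For the genes called in at least 1 comparison, the genes most like each over the 12 libraries, among 6739 genes averaging 5 RPKM or more, are given by Pearson's r on the log2 scale. Baat was most like Cnep1r1 (0.93), Snrpn (0.93) and Nr1h4 (0.92), so that FXR ranked the third of all genes. Cyp27a1 was most like Fbxo31 (0.96), Cyp2b10 (0.96) and Cyp39a1 (0.95), the last being another oxysterol 7 alpha-hydroxylase. Slc10a1 was most like Acsm3 (0.98), Abcb11 like Npr2 (0.97), Cyp7b1 like Keg1 (0.96), Slc27a5 like Adck3 (0.93), Slco1b2 like Nipsnap1 (0.93), Nr0b2 like Ptov1 (0.88) and Cyp7a1 like Arhgef3 (0.86), each with the closest gene given. These r values rest on the same libraries, depths and group differences and are descriptive.

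Splicing gave a second readout of the same genes. The deposited tables list, for each skipped-exon event, the counts of reads that include a candidate exon and of reads that join its neighbours directly. In fasted liver 251 events of 8 of the 10 genes had at least 10 counts in each library, and Cyp8b1, which has 1 exon, and Nr0b2 had none. Of the 251, 34 differed between genotypes (limma on the log2 ratio of inclusion to skipping), against 10.8% of all 69644 events. They lay in Cyp27a1 (29 of 58), Slc10a1 (4 of 5) and Abcb11 (1 of 36). Events that share a join share its reads, and the 29 events of Cyp27a1 rested on 6 joins, of which 5 leave out annotated exons, and the 4 of Slc10a1 on 1. The lists of counts carry no replicate numbers, so their order does not identify a mouse.

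In fasted FLD liver, reads of Cyp27a1 joined exons that are not neighbours. The gene lies on chromosome 1 (74713574 to 74737892, plus strand, GRCm38) and has 9 exons. Exon 2 was skipped by 16, 7 and 0 reads in the 3 WT libraries and by 125, 228 and 143 reads in the 3 FLD libraries. Exon 4 was skipped by 0 reads in each WT library and by 28, 79 and 32 reads in FLD, and exon 6 by 0 reads in each WT library and by 38, 62 and 38 reads in FLD. Exon 7 was skipped by 14, 5 and 8 reads in WT and by 105, 115 and 165 reads in FLD, and exons 2 to 4 together by 0 reads in each WT library and 11, 33 and 8 reads in FLD. No FLD library overlapped a WT library at any of these 5 joins. The joins were picked from events called between the same groups, so this gap follows in part from that choice. The counts are not scaled to depth or to the level of Cyp27a1. These joins are shown because their reads carry the difference. Each line gives 15 bases of the earlier exon in lower case and 15 bases of the later exon in capitals, taken from GENCODE M21 transcripts, and the first line gives the regular join of exons 1 and 2 for comparison.
Exon 1 to exon 2: ttgcccgacctccagGTGCTGAACAAGACC
Exon 1 to exon 3: ttgcccgacctccagACAAGGAGAGCAATG
Exon 1 to exon 5: ttgcccgacctccagGAAAGAAGCTGATTG
Exon 3 to exon 5: accttgccttggaagGAAAGAAGCTGATTG
Exon 5 to exon 7: gctggggtggacacgCCTCTACCCTGTGGT
Exon 6 to exon 8: taaggagaccctgcgACACAGTTTGTGTTA

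On GRCm38 the joins run from 74713891 to 74735277 (exon 1 to exon 3), from 74713891 to 74735864 (exon 1 to exon 5), from 74735476 to 74735864 (exon 3 to exon 5), from 74736036 to 74737017 (exon 5 to exon 7) and from 74736847 to 74737179 (exon 6 to exon 8) of chromosome 1. Exon 2 has 191 bases, exon 4 198, exon 6 167 and exon 7 82, all of them coding. Only the length of exon 4 is a multiple of 3, so that of these single exons its loss alone keeps the reading frame.

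The skipped form was a small part of Cyp27a1 transcripts throughout. The share of transcripts that included exon 2, after allowing for the lengths of both forms, was 99.5%, 99.6% and 100% in fasted WT and 92.2%, 94.6% and 97.6% in fasted FLD, a mean difference of -4.91 percentage points. The log2 ratio of inclusion to skipping was lower in FLD by 4.84 (log2 difference -4.84, SE 1.12, limma adjusted p 0.0172). For exon 7 the mean difference was -1.69 points (log2 difference -3.24, SE 0.71, adjusted p 0.0134), for exon 4 -1.15 points (-5.81, SE 0.77, adjusted p 0.0013) and for exon 6 -0.70 points (-5.85, SE 0.74, adjusted p 0.0012, all by limma). The greatest shift in inclusion among the called events was that of an unannotated piece of 3 bases at the end of exon 7, from 78.1%, 90.5% and 88.6% in fasted WT to 32.6%, 44.9% and 37.2% in fasted FLD (limma adjusted p 0.0146). It weighs the same 412 reads that skip exon 7 against only 420 including counts over the 6 libraries.

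In refed liver 188 events of the 10 genes were tested by limma and none was called, against 1.03% of all events, with 22 at an unadjusted p below 0.05 (14.1% of all events were) and 1 called when 1 in place of 0.5 was added to each count. In FLD these joins of Cyp27a1 had lower counts than in fasted liver, and in WT the counts were low in both states. Exon 2 was skipped by 9, 11 and 3 reads in refed WT and 17, 35 and 22 reads in refed FLD, and exon 6 by 0 reads in each WT library and by 5, 9 and 12 reads in FLD. The share including exon 2 was 99.6%, 99.2% and 99.9% in WT and 99.7%, 99.2% and 99.5% in FLD, which overlapped. For exon 6 the log2 difference was -2.94 (SE 0.64, limma adjusted p 0.0681), a size that again depends on the 0.5 added to each count.

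**Figure D3:**
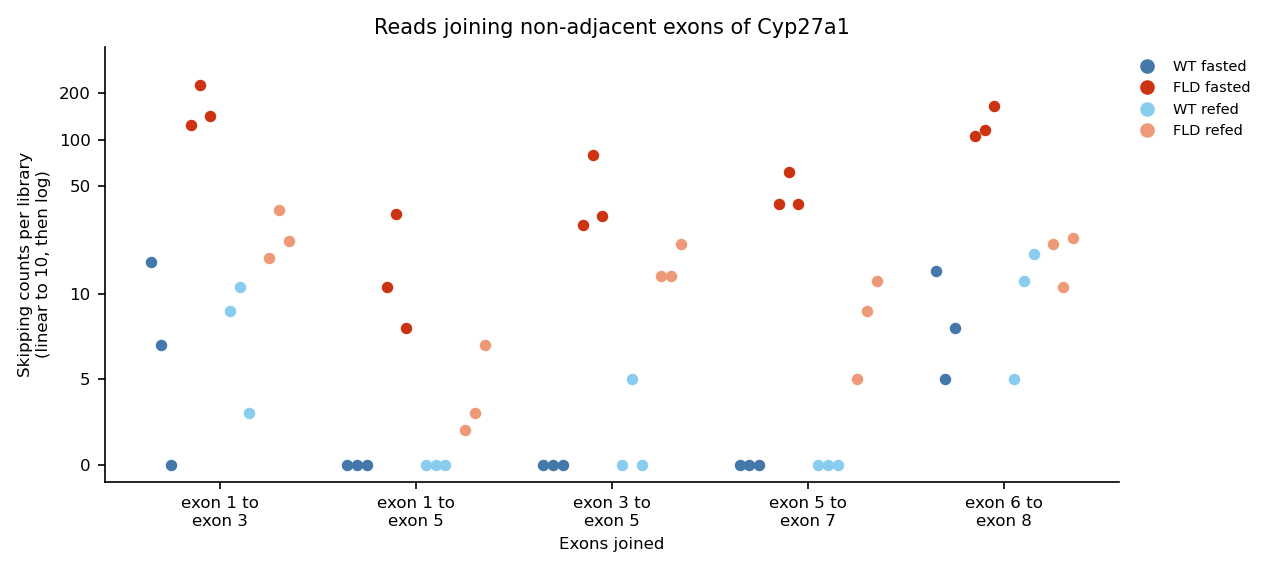
Skipping counts per library (vertical axis, linear to 10 and logarithmic above) for 5 joins of non-adjacent exons of Cyp27a1 (horizontal axis), by group. All 15 points of fasted FLD liver lay above those of fasted WT liver at the same join, and points of refed FLD liver lay between 2 and 35 counts. The joins were picked from events called in fasted liver, and the counts are not scaled to depth or gene level.

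Refeeding itself was compared over the 87 events of the 10 genes present in both tables with enough counts. In WT limma called none of them, and none of the 28444 events tested (0%), while 4.84% of all events had an unadjusted p below 0.05. In FLD 9 were called, against 7.32% of all events, in Slc10a1 and Slco1b2 (3 each) and in Cyp7a1, Cyp7b1 and Cyp27a1 (1 each). Exon 7 of Cyp27a1 was included in 97.4%, 98.5% and 98.4% of transcripts in fasted FLD and 99.7%, 99.9% and 99.7% in refed FLD (log2 difference 3.01, SE 0.65, limma adjusted p 0.0148), while exon 2 missed the threshold (3.21, SE 1.05, adjusted p 0.0825). Exon 2 of Cyp7a1 was included in 96.7%, 100% and 98.1% of transcripts in fasted FLD and 99.4%, 99.7% and 100% in refed FLD, on 12 skipping reads in all and with overlapping groups (limma adjusted p 0.0308). The 3 events of Slco1b2 were unannotated exons included in 1.46% or less of transcripts in any FLD library, and that of Cyp7b1 an unannotated exon included in 0.596% or less.

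Exon 4 of Slc10a1 (179 bases) was skipped by 0, 0 and 1 reads in fasted WT and by 2, 3 and 7 reads in fasted FLD, against 92014 including counts over the 6 libraries. Its inclusion stayed at or above 99.7% in each of them, though the log2 ratio differed by -4.33 (SE 0.79, limma adjusted p 0.0056). With so few skipping reads that size depends on the 0.5 added to each count. The Abcb11 event was an unannotated exon of 166 bases between the last exons, included in 0.018% to 0.127% of transcripts in fasted WT and 0.515% to 0.628% in fasted FLD (limma adjusted p 0.0320). Cyp7b1 had no called event in fasted liver, and its event with the most reads of the rarer form was that of exon 5. This exon was included in 93.7%, 93.7% and 94.4% of transcripts in WT and 94.7%, 93.7% and 91.5% in FLD (log2 difference -0.12, SE 0.70). The 2 events of Cyp7a1 tested there were not called, though each had an unadjusted p below 0.05 (limma), with shifts of up to 1.33 percentage points. The join of Slc10a1 that leaves out exon 4 (chr12:80956116-80960439, minus strand, GRCm38) is shown because all 4 of its called events rest on it, with the bases of exon 5 in capitals.
Exon 3 to exon 5: ccctacgtcctcaagCTGCAGACGCACCAT

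**Figure D4:**
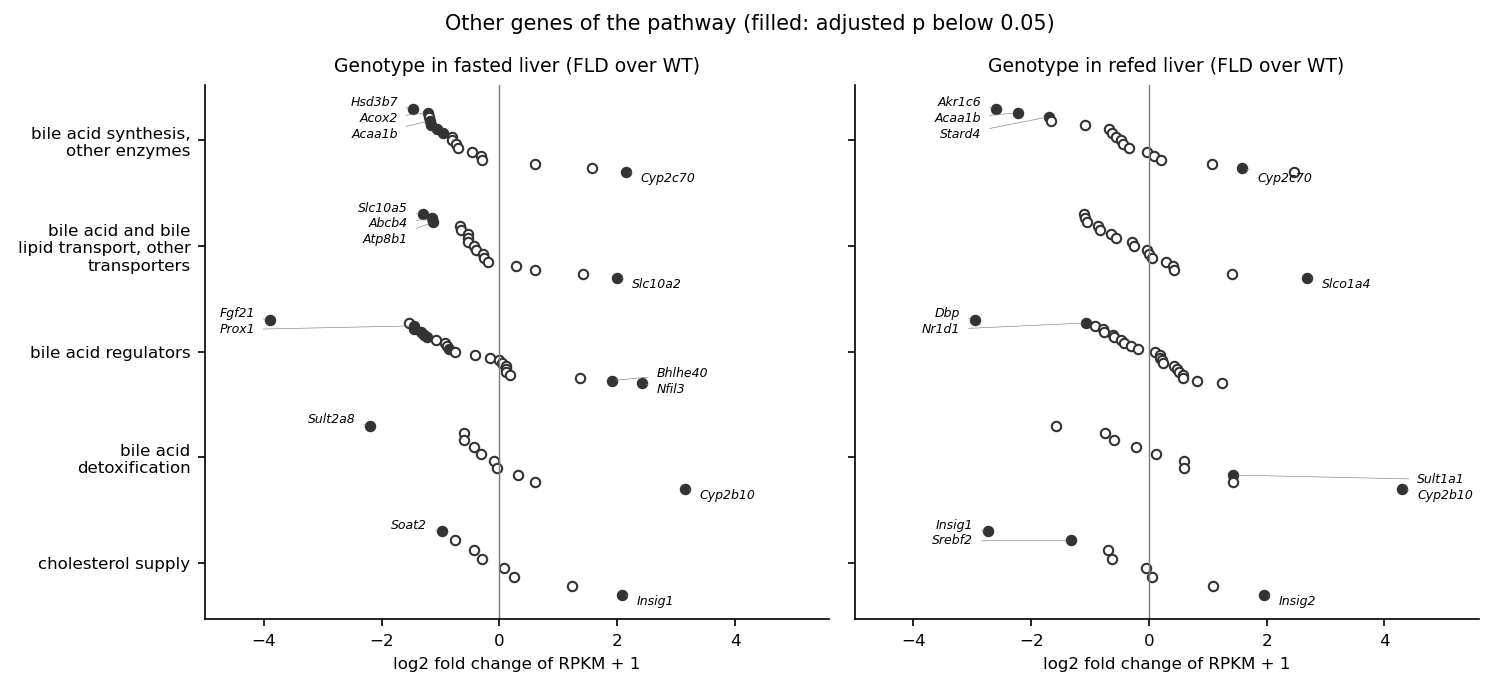
Log2 fold change of RPKM + 1 (horizontal axis, FLD over WT) of other genes of the pathway in fasted (left) and refed (right) liver, by list (vertical axis). Each point is a gene, filled points have a limma adjusted p below 0.05, and names are those of the 4 greatest changes called in each list. In fasted liver 7 of 23 regulators were called lower and 2 higher, against 13.2% and 5.63% of all genes tested.

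Other enzymes of bile acid synthesis were placed beside these results. Of 17 tested in fasted liver, 6 were lower and 1 was higher in FLD, against 13.2% and 5.63% of all genes. Hsd3b7, which oxidises the product of Cyp7a1 and Cyp7b1, was at 223, 376 and 351 RPKM in WT and 92.6, 100.2 and 145 RPKM in FLD, with no overlap (log2 fold change -1.48, limma adjusted p 0.0031). Akr1d1, the next reductase, was lower as well (-1.06, limma adjusted p 0.012), and both calls held without any single library. Acox2 (-1.21), Acaa1b (-1.18), Acot8 (-1.16) and Hsd17b4 (-0.95), enzymes of peroxisomal metabolism that includes side chain shortening, were also lower, though these calls ended without FLD fasted 1, without any of 9 libraries, without any of 4 and without any of 4 (limma adjusted p up to 0.0582, 0.186, 0.0892 and 0.0825). In the opposite direction, Cyp2c70, which makes the muricholic acids of mice, was at 127, 152 and 91.1 RPKM in fasted WT and 720, 491 and 439 RPKM in fasted FLD (log2 fold change 2.14, limma adjusted p 0.0014).

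In refed liver Acaa1b (-2.23, limma adjusted p 0.0079) and Stard4 (-1.69, limma adjusted p 0.0081), a carrier of cholesterol, were lower in FLD without any single library too. Cyp2c70 was higher (1.59, limma adjusted p 0.0147), which was lost without WT refed 1, FLD refed 1 or FLD refed 3 (adjusted p up to 0.0624), and Akr1c6 lower (-2.60), which was lost without any of 7 libraries (adjusted p up to 0.126). Akr1c6 belongs to a family of near-identical copies and its value is uncertain. Refeeding called 2 of the 17 in WT, Stard4 higher (1.52) and Cyp3a11 lower (-1.34), and 1 in FLD, Acox2 higher (1.07). Of all genes, 1.72% were called in WT and 20.7% in FLD. Median-ratio scaling ended all 3 calls (limma adjusted p 0.0651, 0.0859 and 0.0810). The calls of Stard4, Cyp3a11 and Acox2 were also lost without any of 5, 11 and 4 libraries (limma adjusted p up to 0.115, 0.1965 and 0.101).

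Of 17 other transporters of bile acids and bile lipids tested, 3 were lower and 1 was higher in fasted FLD liver (13.2% and 5.63% of all genes). Abcb4, which moves phosphatidylcholine into bile, was at 141, 96.7 and 111 RPKM in WT and at 32.7, 65.8 and 62.3 RPKM in FLD (log2 fold change -1.15, limma adjusted p 0.0101), a call that held without any single library. Slc10a5 (-1.30) and Atp8b1 (-1.14), a canalicular flippase, were lower, but both lost their calls without any of 4 libraries (limma adjusted p up to 0.1135 and 0.0965). Slc10a2, the bile acid carrier of ileum and bile ducts, was higher in FLD at 28.5, 93.5 and 79.1 RPKM against 22.6, 15.2 and 8.10 RPKM (2.0, limma adjusted p 0.0135, or up to 0.0636 without WT fasted 3 or FLD fasted 2). FLD fasted 1, whose high sum of bile duct markers came mainly from Spp1, had the lowest Slc10a2 of the FLD fasted group. The cell source of the Slc10a2 RNA was not tested. In refed liver 1 transporter was called, Slco1a4 (2.69, limma adjusted p 0.0377), against 6.67% of all genes. The call ended without any of the 6 refed libraries (adjusted p up to 0.144). Refeeding in FLD raised Atp8b1 (1.64, limma adjusted p 0.0053), a call that held without any single library, and it called Slc10a5 higher (1.43) and Abcg5 lower (-0.79), which were lost without any of 3 and 6 libraries (limma adjusted p up to 0.0847 and 0.131). In WT it called none of 17, against 1.72% of all genes (0 at an unadjusted p below 0.05, limma, against 13.9%).

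**Figure D5:**
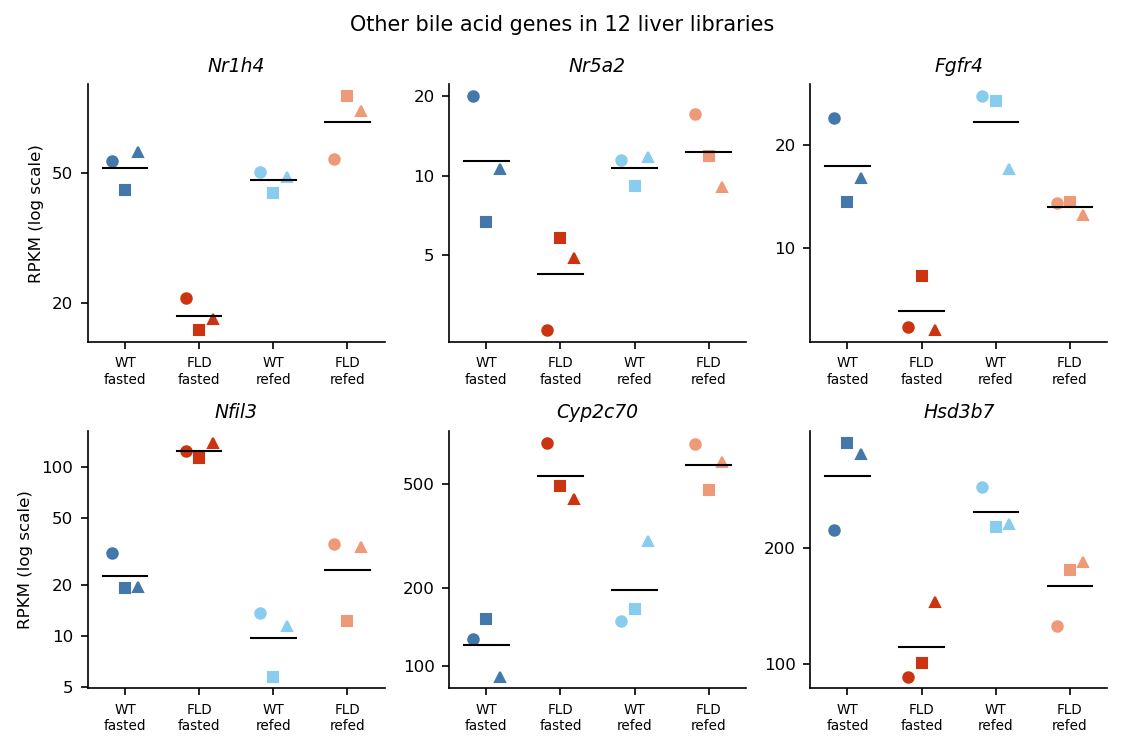
RPKM (vertical axis, log scale) of 6 other bile acid genes in the 12 libraries, by group. Symbols are as in the plot of the 10 genes. Nr1h4, Fgfr4 and Hsd3b7 lay lower in all fasted FLD mice than in any fasted WT mouse, and Nfil3 and Cyp2c70 higher. Of all genes, 22.2% lay lower in this way. The 6 genes drawn were all called between these groups, so such gaps follow in part from that choice.

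Of 23 regulators tested in fasted liver, 7 were lower and 2 were higher in FLD, beside 13.2% and 5.63% of all genes. Nr1h4 (FXR) was at 54.3, 44.4 and 57.9 RPKM in fasted WT and at 20.8, 16.5 and 17.9 RPKM in fasted FLD. The groups were far apart, with a log2 fold change of -1.45 (SE 0.19, limma adjusted p 0.00084). After refeeding Nr1h4 was at 50.5, 43.6 and 48.8 RPKM in WT and at 55.3, 86.1 and 77.3 RPKM in FLD, so that all refed FLD values lay above all other values but the highest of fasted WT. Refeeding thus raised it in FLD by 1.91 (limma adjusted p 0.00035), and the response differed between genotypes by 2.04 (SE 0.27, limma adjusted p 0.0079), each of these calls holding without any single library. The order of group means for Nr1h4 (refed FLD, fasted WT, refed WT, fasted FLD) was the order of those for Baat. It was not the order for Abcb11 (fasted WT, refed WT, refed FLD, fasted FLD) or Nr0b2 (refed WT, fasted WT, refed FLD, fasted FLD). Whether Nr1h4 acts on any of these genes here was not tested.

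Fgfr4, the receptor of the intestinal signal, was at 24.1, 13.7 and 16.0 RPKM in fasted WT against 5.89, 8.30 and 5.75 RPKM in fasted FLD (-1.28, limma adjusted p 0.0052). Nfil3, a repressor that links feeding and the clock, was at 30.9, 19.3 and 19.5 RPKM in fasted WT and 124, 114 and 140 RPKM in fasted FLD (2.41, limma adjusted p 0.0022). Fgf21, a fasting hormone, was lower (-3.90, limma adjusted p 0.0016). These 3 calls held without any single library. Prox1 (-1.46), Nr1i3 (-1.33), Nr5a2 (-1.24), Nr1h3 (-0.86) and Bhlhe40 (1.90) were called over all libraries, and the calls were lost without any of 4, 3, 6 and 6 libraries and without WT fasted 3 (limma adjusted p up to 0.0874, 0.0821, 0.1255, 0.122 and 0.0532). Refeeding in FLD called 5 of the 23 regulators higher, against 17.8% of all genes, and 2 lower, against 336 of all 11507 genes. Among them Prox1 (2.20), Foxa2 (2.0), Nfil3 (-2.31) and Nr1h4 held without any single library. In WT refeeding called none of 23, against 1.72% of all genes (4 at an unadjusted p below 0.05, limma, against 13.9%). In refed liver Dbp (-2.96) and Nr1d1 (-1.06), genes of the circadian clock, were lower in FLD, with calls that ended without any of 5 and 7 libraries (limma adjusted p up to 0.122 and 0.1295).

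Among 10 genes of bile acid detoxification, Cyp2b10 was at 99.7, 26.0 and 18.02 RPKM in fasted WT and 112, 397 and 806 RPKM in fasted FLD (3.15, limma adjusted p 0.0152), and at 27.1, 5.37 and 11.7 RPKM against 266, 268 and 244 RPKM in refed liver (4.30, limma adjusted p 0.0093). FLD mice were all above WT mice in both states. The call in fasted liver ended without WT fasted 3 or FLD fasted 3 (limma adjusted p up to 0.0712). Sult2a8 was lower in fasted FLD (-2.20, limma adjusted p 0.0152, or up to 0.0625 without WT fasted 3 or FLD fasted 1) and Sult1a1 higher in refed FLD (1.43, limma adjusted p 0.0101). Cyp2b10 and Sult2a8 belong to families of close copies, between which reads can be divided wrongly.

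Of 8 genes of cholesterol supply tested, Insig1, which holds back the activation of sterol-sensing transcription factors, had the greatest difference in its response to food. It was at 20.2, 18.2 and 36.01 RPKM in fasted WT and at 172, 112.5 and 56.4 RPKM in fasted FLD, and at 71.0, 58.0 and 98.2 RPKM in refed WT and 9.13, 10.1 and 11.7 RPKM in refed FLD. FLD mice were thus all above WT mice when fasted (log2 fold change 2.07, limma adjusted p 0.0038) and all below them when refed (-2.74, limma adjusted p 0.0026). Refeeding lowered Insig1 in FLD by 3.21 (log2 fold change -3.21, limma adjusted p 0.00066), in WT its estimate was 1.60 (limma adjusted p 0.0620), and the response differed between genotypes by -4.81 (SE 0.53, limma adjusted p 0.0033). These calls held without any single library, as did that of Soat2, which esterifies cholesterol, lower in fasted FLD liver (-0.98, limma adjusted p 0.0033). In refed liver Srebf2 (-1.33) was called lower and Insig2 (1.95) higher in FLD, and refeeding in FLD called Abca1 higher (1.53), with calls lost without any of 3, 5 and 4 libraries (limma adjusted p up to 0.0699, 0.1095 and 0.129). In WT refeeding called none of the 8, against 1.72% of all genes (3 at an unadjusted p below 0.05, limma, against 13.9%).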

How the data were processed

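RNA-Seq libraries were grouped by the feeding state and genotype in the labels. Per the labels and the study's methods, the authors aligned 69 bp paired reads to GRCm38 with HISAT2 2.0.5, counted genes with HTSeq 0.6.0 and deposited RPKM per gene and library. DESeq2 1.20.0, which the submitters' processing notes also name, was not used here. With rMATS (version not given in the sources used here) they deposited other values as lists, the inclusion and skipping counts of skipped-exon events, with their own p-values and fold changes, which were not used. Lists carry neither a group name nor a replicate number. The group of each list was set from the groups that each deposited comparison names and from counts identical between comparisons. This identity was checked for the WT lists (1523 of 1523 shared events fasted, 1719 of 1719 refed), and the other list of each genotype comparison was taken as FLD.

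The 4 groups were fitted with limma 3.58.1 (R 4.3.3) on log2(RPKM + 1), with a trend in the variance, over genes averaging 0.5 RPKM or more. Such fold changes understate changes of low genes. Events with at least 10 counts in each library were fitted on the log2 ratio of length-normalised inclusion to skipping, with 0.5 added. The Benjamini-Hochberg adjustment ran over all features, with a threshold of 0.05. RPKM is scaled to all mapped reads of a library, so a few abundant genes can shift the rest. The mapped reads were estimated from the commonest low product of RPKM and exon length, taken as 1 read. That annotation is not the one used for the deposited values, so this depth is approximate. The fits were tested on simulated data.

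All 10 genes are named in every comparison, and of each other list up to 4 genes with the greatest change per comparison, with others of the list named beside them after their values were seen. For splicing the called event of greatest shift per gene is named, and the annotated exons of Cyp27a1 were added after their values were seen. Some genes of the lists are not reported here. The genes, lists and tests were chosen with earlier results of these data known. Alternatives were adding 0.1 in place of 1, all genes or only those averaging 5 RPKM, scaling by median ratios, the replicate number as a block, only the 6 libraries compared, a robust variance estimate, other count minimums for events, and each library left out in turn. A fit without FLD fasted 1 and WT refed 2 together was added after seeing the data. Each library is from 1 mouse, as far as the labels say, so the p-values describe the spread between mice.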

Additional observations from a re-analysis of the deposited data

Results flagged for a closer look

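The response to refeeding differed between genotypes for 3 genes named above, by the test of the difference itself (limma, FLD response minus WT response on the log2 scale). The difference was 1.62 for Baat (adjusted p 0.0334), 2.04 for Nr1h4 (adjusted p 0.0079) and -4.81 for Insig1 (adjusted p 0.0033). Of all genes tested, 1.28% were called. The Baat call ended without any of 9 libraries, with no filter on low values, with median-ratio scaling and with the replicate number as a block. Those of Nr1h4 and Insig1 held without any single library and with median-ratio scaling. The 3 comparisons share the same 12 libraries.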

How the results depend on the processing

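Among the alternative fits of single fold changes of the 10 genes, 28 that left out a library and 15 others turned the direction, each of a value that was not called, and the cause was not tested. Without a filter on low values 4 genes were called in fasted liver in place of 5, and 0 genes were called in refed liver and 0 for the difference in response, in place of 1 each. Median-ratio scaling, which moved the median change of all genes from -0.14 to 0.01 (fasted genotype), from 0.19 to 0.02 (refeeding, WT) and from 0.25 to -0.03 (refeeding, FLD), and the share of higher among called genes from 29.9% to 46.9%, from 88.4% to 63.2% and from 85.9% to 59.2%, gave 2 calls in refed liver (Cyp27a1 and Abcb11, while that of Nr0b2 ended), 0 for refeeding in FLD and 0 for the difference in response. The share moved likewise from 39% to 50% (refed genotype), from 32.2% to 49.4% (genotype averaged) and from 90.3% to 60% (refeeding averaged). In fasted liver the scaling called Cyp27a1 higher and ended the Slc10a1 call, so that the count stayed at 5. It turned Abcb11 (-0.11) and Nr0b2 (-0.14) for refeeding in FLD, Slc27a5 (0.072) for the fasted genotype, Cyp7b1 (-0.0074) for the difference in response, and Abcb11 (-0.17), Slc10a1 (-0.16) and Slco1b2 (-0.24) for refeeding averaged. The fit on only the 6 fasted libraries called 3 genes, not 5. Without FLD fasted 1 and WT refed 2, chosen after seeing the data, 3 genes were called in refed liver, and the values turned were Abcb11 0.13 for refeeding in WT, Nr0b2 -0.0069 for refeeding in FLD, Cyp8b1 -0.48 and Slc10a1 -0.48 in refed liver, and Cyp8b1 -0.08, Cyp27a1 -0.30, Cyp7b1 -0.25 and Abcb11 -0.11 for the difference in response. Adding 1 to each count called 1 event in refed liver.

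With the replicate number as a block, the refed genotype, the difference in response and refeeding averaged called 0 genes in place of 1 each, and the other counts did not change. The deviations of libraries from their group means were correlated between same-numbered libraries of different groups, with r from -0.47 to 0.74. Each group has few libraries and their deviations are not independent, so these values cannot decide whether the numbers pair the mice. No paired analysis was possible for splicing because its lists carry no replicate numbers.

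With each library left out in turn, the counts of called genes ranged from 3 to 6 (fasted genotype), 0 to 2 (refed genotype), 0 to 1 (difference in response), 1 to 2 (refeeding in FLD) and 0 to 3 (refeeding averaged), and called events from 3 to 10 (refeeding in FLD), with 3 or 4 without either of 2 fasted or 2 refed FLD libraries. Values that crossed 0 ranged from -0.26 to 0.23 for Abcb11 (refeeding in WT), from -1.03 to 0.52 for Cyp8b1, -0.41 to 0.22 for Cyp27a1 and -0.024 to 0.41 for Nr0b2 (refeeding in FLD), from -0.22 to 0.013 for Slc27a5 (fasted genotype), from -0.25 to 0.60 for Cyp7a1, -0.48 to 0.43 for Cyp8b1 and -0.48 to 0.34 for Slc10a1 (refed genotype), from -0.064 to 0.57 for Cyp27a1 and -0.24 to 0.43 for Cyp7b1 (difference in response), and from -0.0081 to 0.24 for Abcb11, -0.18 to 0.38 for Slc10a1 and -0.068 to 0.15 for Slco1b2 (refeeding averaged). Among the other lists, median-ratio scaling changed the enzymes lower in fasted FLD liver from 6 to 3 and the cholesterol genes higher there from 1 to 2.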
